A study of Mus musculus with 32 samples.

Results

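The question here is whether serum withdrawal moved transcripts between the light and heavy fractions of polysome gradients. Its measure, for each cDNA clone, was the heavy minus light difference in serum stressed cells minus the same difference in basal cells, averaged over NIH 3T3 and 4E cells. This serum by fraction term draws on all 32 deposited columns of the series, averaged to 16 samples, and on 15169 of the 15247 clones of the table. Mouse NIH 3T3 fibroblasts and their derivative NIH 3T3/4E, which overexpresses the translation initiation factor eIF4E ectopically, were either in complete growth medium (basal) or kept 16 h without serum (serum stressed, here called starved). The sources used here do not name the vector or promoter of the 4E line, or say whether it is 1 clone. RNA from polysome gradients was pooled as a light fraction (gradient fractions 4 to 6, under 1 ribosome per transcript) and a heavy fraction (fractions 7 to 10, over 1 ribosome per transcript). Each sample was hybridised in 2 colours on cDNA arrays against a common reference, unfractionated poly(A) RNA from NIH 3T3 cells grown in full medium. The cell lines, fractions and serum states made 8 groups, with 2 samples each. Whether they were separate cultures is not labelled, so the p-values refer to the spread between these samples, which may be technical.

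As background, eIF4E binds the cap of mRNAs and brings them to the ribosome, and mRNAs in active translation carry many ribosomes and sediment in the heavy fractions. Serum withdrawal lowers mTOR signalling, after which the eIF4E-binding proteins hold eIF4E back from the cap. The mRNAs of ribosomal proteins and elongation factors, which begin with a terminal oligopyrimidine tract, are known for leaving heavy polysomes in cells without serum. The clones could not be assigned to such groups, because 0 of their IDs matched the mouse RefSeq gene table used here (GRCm38.p6). They are therefore named by ID alone, without gene, position or sequence. eIF4E itself and fibroblast markers could not be checked for the same reason.

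Values are centred log2 ratios against the reference, and a difference of 1 unit would be a 2-fold difference. The direction of the deposited ratio is not given in the sources used here, so signs are those of the deposited scale and do not say which fraction held more of a transcript. Samples of 1 group had an r of 0.53 to 0.68 over clones, and precision is limited by how few arrays there are. The second 4E heavy starved sample had the lowest median r with the other samples (0.33, against 0.43 to 0.52). Centring samples on their medians hides any shift that most transcripts share.

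One fault of the table bears on any single clone. The 2 control rows of the table were filled for 8 samples (NIH 3T3 basal, 4E starved) and blank for the other 8 (NIH 3T3 starved, 4E basal). On 151 of the 159 library plates, the mean profile over the first 8 samples matched the same plate's profile over the other 8 better than that of any other plate, with r over wells of 0.39 to 0.92. On the 8 plates H3105 to H3112 the same-plate r was between -0.17 and 0.19. Each of these 8 plates matched instead the plate exactly 4 numbers away (H3105 with H3109, H3106 with H3110, H3107 with H3111, H3108 with H3112, in both directions), at r of 0.44 to 0.91. Over all other pairs of unlike plates the highest r was 0.41. Within each side the samples correlated on these plates at a median r of 0.35 and 0.44, against 0.43 and 0.51 on the other plates. On these 763 clones (5.03% of those tested) an ID thus did not carry the same values on both sides. Which side carries the IDs as the library assigns them is not given in the sources used here. The main counts below are also given without these plates and with the plates exchanged on one side, and clones of these plates are marked as such.

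**Figure D1:**
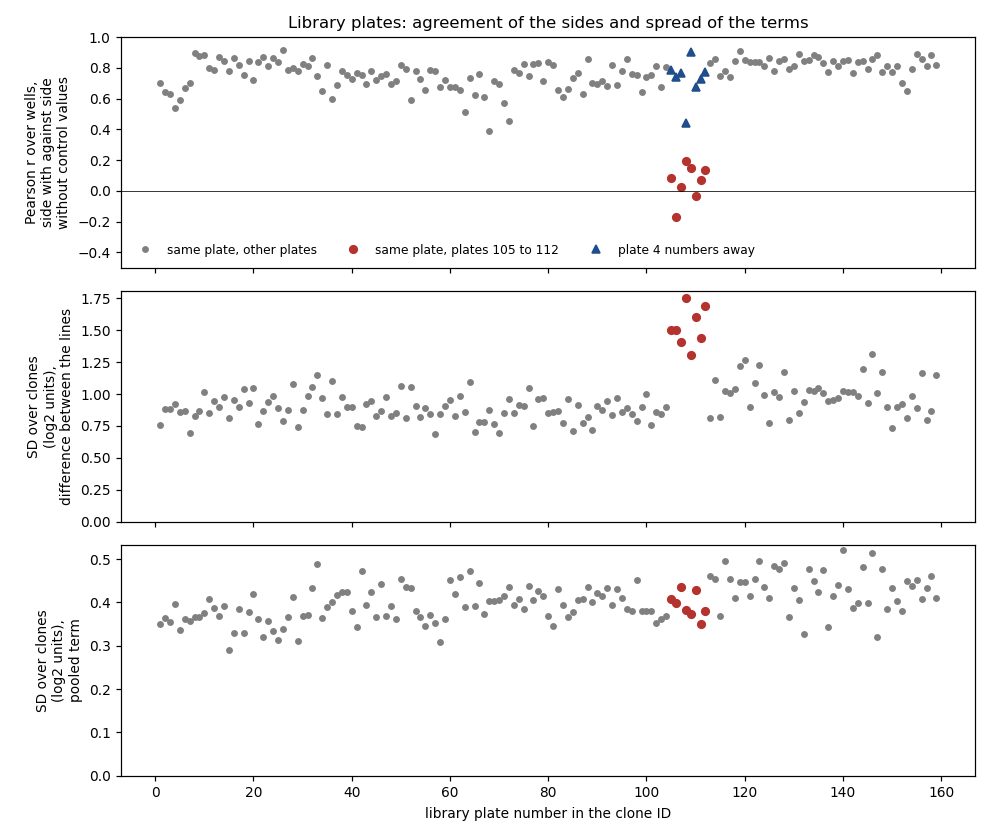
The upper panel plots, for each library plate (x axis, plate number in the clone ID), Pearson's r over wells between the mean centred log2 ratios of the 8 samples with control values and of the 8 without. Plates H3105 to H3112 lie at -0.17 to 0.19 (red) with the same plate and at 0.44 to 0.91 (blue triangles) with the plate 4 numbers away. The lower panels plot the SD over a plate's clones of the difference between the cell lines in the serum by fraction term, which averages 1.53 on these plates and 0.92 on the others, and of the pooled term (0.39 and 0.40).

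Heavy and light samples differed in both serum states, and in much the same way. Averaged over the cell lines, 927 clones (6.11%) passed an adjusted p of 0.05 by limma in basal cells, with heavy above light on the deposited scale in 476 and below it in 451. In starved cells 1199 clones (7.9%) passed, 682 positive and 517 negative. At an unadjusted p under 0.05 there were 3019 (19.9%) in basal and 3211 (21.2%) in starved cells. Both lists shared 651 clones, 70.2% of the basal and 54.3% of the starved list, and all 651 had the same sign. Of the 927 basal clones 920 had the same sign in the starved samples, and of the 1199 starved clones 1190 had it in the basal samples. Over all clones, called or not, 69.7% had the same sign in both states. The basal and starved differences share no sample other than the common reference, and over all clones they correlated at r = 0.70 (Spearman's rho 0.62). The larger count in starved cells was not stable. It was 1029 against 1254 in basal cells with quantile normalization, 889 against 1262 with scaling to 1 median absolute deviation, and 842 against 1277 with array weights. Without plates H3105 to H3112 the counts were 949 and 1206, and with the plates exchanged 979 and 1264. The counts also leaned on single samples. The basal count was 348 or 437 without the first or second 4E heavy sample, 267 or 609 without the first or second 4E light sample, and 330 or 167 without the second NIH 3T3 heavy or light sample. The starved count was 711 or 666 without the first or second NIH 3T3 heavy sample and 727 without the second 4E heavy sample. It was 758 or 535 without the first or second 4E light sample, and 569 without the second NIH 3T3 light sample.

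The sizes were also alike. Clones with a positive call in basal cells had a median difference of 1.21 in basal and 1.20 in starved samples, and those with a negative call -1.11 and -0.98. Clones with a positive call in starved cells had a median of 1.20 in starved and 1.02 in basal samples, and those with a negative call -1.10 and -0.96. A list picked in one state tends to be larger there than in the state it was not picked in. The SD of the difference over all clones was 0.53 in basal and 0.54 in starved samples.

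Clone H3003G02 shows the steady pattern most plainly among the named clones. In NIH 3T3 cells its heavy samples stood at 0.98 and 0.93 (basal) and at 1.37 and 0.73 (starved), and its light samples at -1.12 and -1.37 (basal) and at -0.89 and -1.29 (starved). In 4E cells its heavy samples stood at 0.44 and 1.00 (basal) and at 1.23 and 0.92 (starved), and its light samples at -1.69 and -0.54 (basal) and at -0.61 and -0.77 (starved). All 8 heavy samples lay above all 8 light samples, and the serum states overlapped within each fraction. Its heavy minus light difference was 2.02 (SE 0.28, limma adjusted p = 0.00471) in basal and 1.95 in starved cells. The pooled serum by fraction term was -0.066 (SE 0.39), with a 95% interval of -0.90 to 0.77.

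Clones H3059E05 and H3025C05 had the largest positive differences in starved cells. They stood at 2.38 (SE 0.26) and 2.35 (SE 0.26), both at a limma adjusted p of 0.00113, against 2.01 and 1.95 in basal cells. Their pooled terms were 0.36 (95% interval -0.43 to 1.15) and 0.40 (-0.38 to 1.19). In NIH 3T3 cells the heavy samples of clone H3059E05 stood at 0.99 and 1.03 (basal) and at 1.29 and 1.35 (starved), and its light samples at -0.41 and -1.49 (basal) and at -0.91 and -1.04 (starved). In 4E cells its heavy samples stood at 0.69 and 0.44 (basal) and at 1.13 and 1.95 (starved), and its light samples at -1.54 and -1.46 (basal) and at -0.85 and -0.995 (starved). As in clone H3003G02, no light sample reached a heavy one. Clones H3059E05 and H3025C05, of separate plates, ran together, with a gap of at most 0.42 between them in any of the 16 samples and a median gap of 0.14. On the negative side of the starved list, clone H3156E02 differed by -1.90 (SE 0.42, adjusted p = 0.0143) and clone H3009D10 by -1.90 (SE 0.27, adjusted p = 0.00279). The call of clone H3156E02 was lost under ordinary least squares (adjusted p = 0.0743), and by limma without the second 4E (0.0584) or second NIH 3T3 light starved sample (0.0577). Without the first NIH 3T3 heavy starved sample its difference was -1.22. In basal cells these clones differed by -1.04 and -0.98. For clone H3009D10 the pooled term was -0.92, with an unadjusted interval of -1.74 to -0.090 that excludes 0, and for clone H3156E02 it was -0.86 (-2.13 to 0.41). The clones given here were picked by their starved difference, which is 1 part of the pooled term. Pooled terms of the same sign thus follow in part from that choice, and no clone passed for the pooled term after adjustment.

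The largest basal differences were less steady. Clone H3120E07 had the largest positive one among the called clones, 2.31 (SE 0.45, limma adjusted p = 0.0120), and stood at 0.39 in starved cells. Its light 4E samples were at -2.36 and -3.99 in basal and at -1.16 and -0.85 in starved cells. Its heavy 4E samples were at -0.22 and 2.19 in basal and at -1.55 and -0.86 in starved cells. In NIH 3T3 cells its heavy samples lay between -1.10 and -0.30 and its light samples between -1.65 and -1.17 over both serum states. The basal difference thus came mostly from 4E cells, whose basal samples stood far apart, and its columns were equal in 6 of the 16 samples. Under ordinary least squares the basal difference was not called (adjusted p = 0.0604). Its pooled term was -1.91 (SE 0.63, unadjusted p = 0.00853). That term subtracts the basal difference that picked this clone, so a negative value follows in part from the choice. After adjustment no clone passed for the pooled term. The largest negative basal differences among called clones were those of clone H3125E02 (-1.91, SE 0.47, adjusted p = 0.0282) and clone H3152D09 (-1.84, SE 0.45, adjusted p = 0.0292). Neither call held under ordinary least squares (adjusted p = 0.116 for both). Leaving out 1 sample also ended the call of clone H3125E02 without the second 4E heavy, either 4E light, or the second NIH 3T3 heavy or light basal sample (limma adjusted p of 0.0680 to 0.107). For clone H3152D09 the call ended without any of the same 5 samples or the first 4E heavy basal sample (0.0532 to 0.131). Their starved differences were -0.72 and -1.16, and the intervals of their pooled terms, -0.22 to 2.60 and -0.69 to 2.05, included 0.

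The heavy minus light balance of a clone did not change past the threshold for any clone when serum was withdrawn. By limma, 0 of 15169 clones (0%) passed for the pooled term, and the smallest adjusted p was 1.00. At an unadjusted p under 0.05 there were 361 clones (2.38%), 186 positive and 175 negative, fewer than the 5% that evenly spread p-values would give. Ordinary least squares also called 0 clones, with 435 at an unadjusted p under 0.05. The term had a median of 0.017 and an SD of 0.41 over clones, its quartiles were -0.23 and 0.27, and 359 clones exceeded 1 unit in either direction. Over all clones its mean square was 0.746 times that between replicate samples, and for 10786 clones (71.1%) the clone's own term was below its own replicate mean square. Most clones would fall below it without any effect too, so this share is not read as a lack of change. Without plates H3105 to H3112 no clone passed and 342 of 14406 (2.37%) had an unadjusted p under 0.05, and with the plates exchanged 364 of 15164 did.

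The 0 does not show that the balance stayed the same. The median 95% half-width of the pooled term was 0.84 units, unadjusted. The interval lay within 1 unit of 0 for 5111 clones (33.7%) and within 2 units for 14410 (95%). Among the 651 clones called in both serum states, the median term was 0.030 for the 377 positive and 0.0049 for the 274 negative ones. Over all 651 the terms ran from -0.92 to 0.81, and for 401 of them (61.6%) the interval lay within 1 unit of 0. The term is the difference of the same 2 values that picked these clones. Small terms and narrow intervals among them thus follow in part from that choice. Leaving out 1 sample leaves its group with 1 sample and no spread of its own, here and in all such fits of this report. Calls that arise this way are therefore not read as changes of the balance. Such fits gave calls for the pooled term in 6 of 16 cases. Clones H3107E07 and H3110E05, called without the second NIH 3T3 heavy basal sample, lie on plates H3105 to H3112. There were 6 calls without the second NIH 3T3 heavy basal sample and 2 without the first NIH 3T3 light starved sample. There was 1 call each without the second 4E heavy starved, the second 4E light starved, the second NIH 3T3 heavy starved and the first NIH 3T3 light basal sample. These were 12 different clones, each called in 1 case only.

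**Figure D2:**
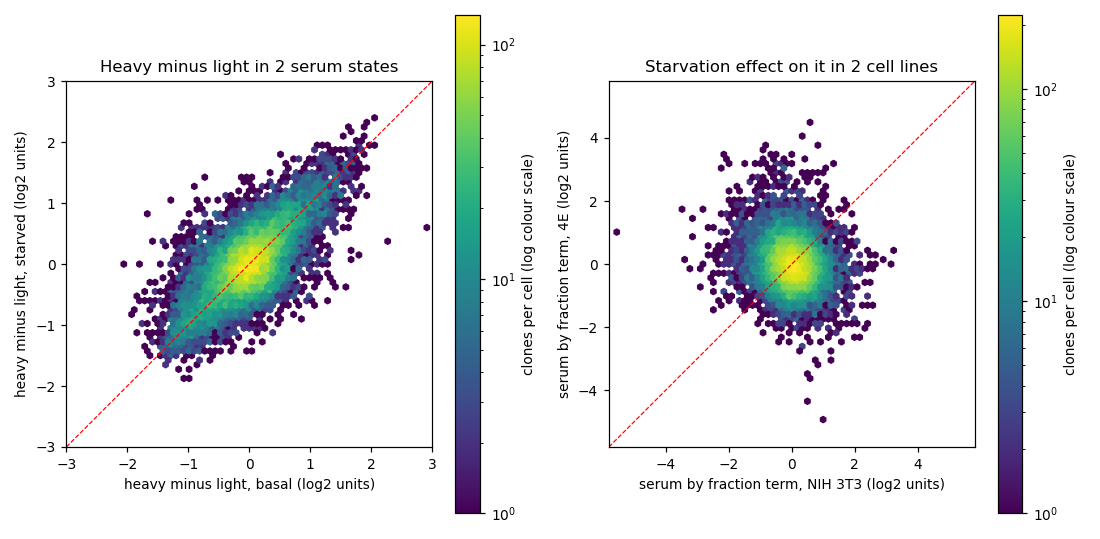
Each hexagonal cell counts clones (log colour scale). The left panel sets the heavy minus light difference in basal cells (x axis, log2 units) against that in starved cells (y axis), with r = 0.70 along the dashed line of equality. The right panel sets the serum by fraction term of NIH 3T3 (x axis) against that of 4E cells (y axis), where r is -0.17 and no cloud follows the line.

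The 2 clones with the smallest p on each side of the pooled term are given as values, since none passed (limma adjusted p = 1.00 for each). Clone H3072H07 had the smallest p (term 1.56, SE 0.34, 95% interval 0.83 to 2.30, unadjusted p = 0.000407). Its heavy 4E samples stood at -0.040 and -0.12 in basal and at 1.93 and 2.34 in starved cells, and its light 4E samples at 0.089 and 0.34 in basal and at -0.38 and -0.14 in starved cells. In NIH 3T3 its heavy samples stood at -0.11 and 0.49 (basal) and at 0.82 and 0.028 (starved), and its light samples at 0.38 and 0.082 (basal) and at -0.028 and 0.079 (starved). The high samples were thus the heavy starved ones of 4E cells alone, and the term was 2.69 in 4E and 0.44 in NIH 3T3 cells. There the serum states overlapped in the heavy samples, while both light basal samples lay just above both light starved ones.

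Clone H3128E03 was alike in both lines, with a term of 1.68 (SE 0.66) in NIH 3T3 and 1.85 (SE 0.66) in 4E cells and a pooled term of 1.77 (SE 0.47, unadjusted p = 0.00185). Its heavy samples stood in basal cells at -1.73 and -2.80 (NIH 3T3) and at -2.36 and -2.35 (4E), and in starved cells at -0.62 and -1.48 (NIH 3T3) and at -1.61 and -1.77 (4E). Its light samples stood in basal cells at -1.60 and -0.71 (NIH 3T3) and at -0.30 and -0.97 (4E), and in starved cells at -2.08 and -1.16 (NIH 3T3) and at -1.57 and -2.09 (4E). In each line both basal heavy samples lay below both basal light samples, while the starved heavy and light samples overlapped in both lines. In 1 sample its 2 columns lay 3.02 apart, against a median gap of 0.20 where columns of any clone were unequal.

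Clone H3076B11 had a pooled term of -1.60 (SE 0.41, unadjusted p = 0.00140) that came from 1 group. Its heavy NIH 3T3 basal samples stood at 4.03 and 2.68, and all 14 other samples lay between -0.55 and 0.41. The term was -3.40 (SE 0.58, limma adjusted p = 0.50) in NIH 3T3 and 0.20 (SE 0.58) in 4E cells. In NIH 3T3 it was called with quantile normalization (-3.35, adjusted p = 0.0385) and without the second heavy basal sample (-4.08, adjusted p = 0.00421). Clone H3090E07 had a pooled term of -1.43 (SE 0.41, unadjusted p = 0.00379), with -1.06 in NIH 3T3 and -1.80 in 4E cells. Its heavy samples stood in basal cells at 1.12 and 0.31 (NIH 3T3) and at 0.30 and 0.32 (4E), and in starved cells at -0.096 and -1.02 (NIH 3T3) and at 0.0010 and -0.88 (4E). Its light samples stood in basal cells at -0.31 and 0.21 (NIH 3T3) and at -0.79 and -0.27 (4E), and in starved cells at -0.11 and -0.43 (NIH 3T3) and at 0.42 and 0.61 (4E). All 4 basal heavy samples lay above all 4 starved heavy samples. The light samples overlapped between serum states in NIH 3T3, and in 4E cells both starved light samples lay above both basal ones.

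**Figure D3:**
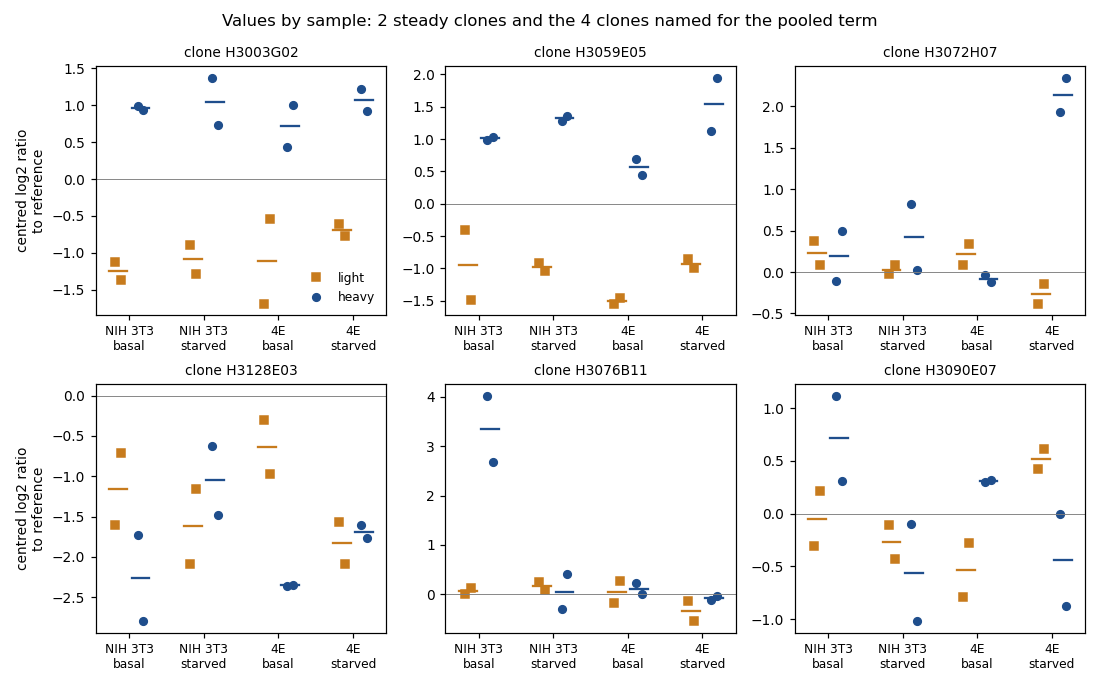
Centred log2 ratio to the reference (y axis, own scale in each panel) of 6 clones in each cell line and serum state (x axis), with 1 point per sample and a bar at the mean of the 2 samples of a group. Clones H3003G02 and H3059E05 keep heavy samples (blue) above light samples (orange) in every state. The other 4 have the smallest p for the pooled term, and clone H3076B11 stands out in NIH 3T3 basal heavy samples alone.

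By cell line, the term did not pass for any clone either. By limma 0 clones (0%) passed in NIH 3T3, where 525 (3.46%) had an unadjusted p under 0.05, and 0 (0%) in 4E cells, where 793 (5.23%) did. Without plates H3105 to H3112 these were 422 (2.93%) and 674 (4.68%), and with the plates exchanged 452 and 713, with 0 called by limma in each case. Within each line the 2 serum states lie on opposite sides of the control rows, in opposite order in the 2 lines. The term of 1 line thus cannot be told apart from a side difference in the heavy minus light balance. Such a side difference would enter the terms of the 2 lines with opposite signs. The terms of the 2 lines share no sample and correlated over clones at r = -0.17 (Spearman's rho -0.15), and 44.5% of clones had the same sign in both. Without the 8 plates r was -0.13. Clones of these plates were among the calls of each line given next, such as H3107E07 (NIH 3T3) and H3112H10 (4E). Leaving out 1 sample gave up to 27 calls in NIH 3T3 (without the second heavy basal sample) and up to 12 in 4E cells (without the first light basal sample). Calls in NIH 3T3 also came without the second heavy starved (8), second light basal (7), first heavy basal (5), first light starved (2) and first light basal sample (1). In 4E cells they came without the first heavy basal (11), first heavy starved (5), second light starved (3) and second heavy starved sample (1). The components of the pooled term that each stay on one side of the control rows, 4E starved against NIH 3T3 basal and NIH 3T3 starved against 4E basal, correlated at r = 0.0059. In these components cell line and serum change together, and 0 clones passed in either by limma (441 and 416 at an unadjusted p under 0.05).

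The term did not recur between samples split by their number. The labels do not say that the numbers pair samples across groups, and other splits were not run. Computed from the samples numbered 1 and again from those numbered 2, the pooled term correlated over clones at r = -0.12, that of NIH 3T3 at -0.11 and that of 4E cells at 0.024. The heavy minus light difference, computed the same way, correlated at 0.41 in basal and 0.49 in starved cells. Clones ranked by the heavy minus light difference of one line had slightly different terms in the other line. From the lowest to the highest of 10 equal classes of clones in 4E cells, the median term in NIH 3T3 went from 0.14 to -0.019. Over the same classes made in NIH 3T3 cells, the median term in 4E went from -0.11 to 0.19. The slopes were opposite in the 2 lines, with r of -0.080 and 0.098 over clones. Serum state and side of the control rows coincide within each line, in opposite order in the 2 lines. Whether these slopes go with serum or with the side thus cannot be told apart.

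**Figure D4:**
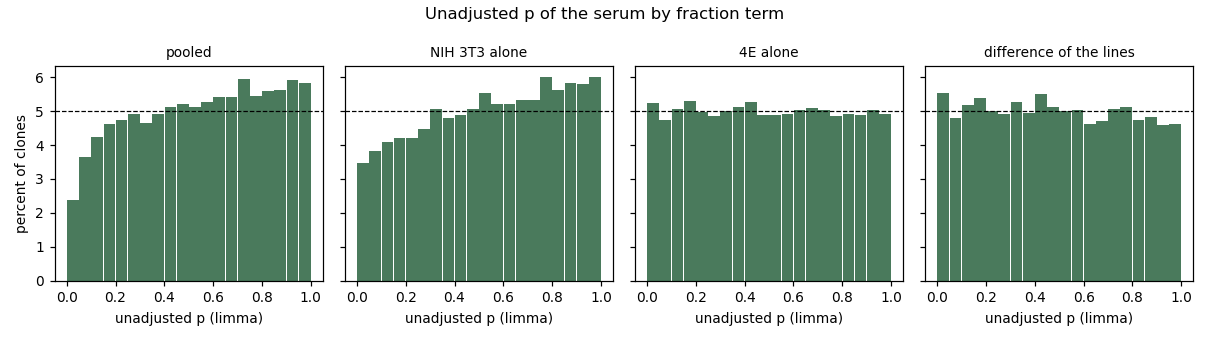
Share of the 15169 clones (y axis, percent) in 20 bins of unadjusted limma p (x axis) for the serum by fraction term, pooled, in NIH 3T3, in 4E cells and as the difference of the lines. The dashed line at 5% marks evenly spread p-values. The lowest bin holds 2.38% for the pooled term, 3.46% in NIH 3T3, 5.23% in 4E cells and 5.54% for the difference.

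In NIH 3T3, clone H3051C03 had the smallest p among positive terms (2.34, SE 0.45, limma adjusted p = 0.97), and in 4E cells it stood at -1.35. Its heavy samples were at 1.95 and 1.94 in NIH 3T3 starved and at 1.40 and 1.21 in 4E basal cells, and all other samples lay between -0.51 and 0.68. The high samples were therefore all heavy samples of the side without control values. Clone H3038A01 had a term of -2.28 (SE 0.53, adjusted p = 1.00) in NIH 3T3, with heavy basal samples at 1.60 and 2.57 and all other samples between -0.36 and 0.45. In 4E cells clone H3145D04 had a term of 1.94 (SE 0.42, adjusted p = 0.80) and clone H3009C04 one of -2.98 (SE 0.53, adjusted p = 0.48). The heavy 4E starved samples of clone H3009C04 stood at -2.99 and -3.47, below all its other samples (-0.39 to 1.26), and in 1 sample its columns lay 5.57 apart. Its term was -1.11 from the higher column of each pair and -4.86 from the lower, where it was called (limma adjusted p = 0.0425). It was also called without the first 4E light basal sample (-3.40, adjusted p = 0.0444).

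The difference between the cell lines in the term was not called for any clone. By limma 0 clones (0%) passed, with a smallest adjusted p of 0.16, and 841 (5.54%) had an unadjusted p under 0.05. This difference coincides with a difference of the heavy minus light balance between the sides of the control rows, so these cannot be told apart. Clone H3110C07 had the smallest p (difference -4.33, SE 0.66), but it lies on one of the 8 plates. With the plates exchanged its difference was -0.66 (SE 0.74, adjusted p = 0.98). Clone H3110D04, named for NIH 3T3, likewise went from a term of 2.05 to 0.36 (SE 0.47). Of the 100 clones with the smallest p for the difference, 47 were on plates H3105 to H3112, and 5 after the exchange. The same counts were 32 and 6 in NIH 3T3, 21 and 2 in 4E cells, and 6 and 5 for the pooled term. Without the plates 658 of 14406 clones (4.57%) had an unadjusted p under 0.05, and the smallest adjusted p was 0.41. With the plates exchanged there were 694, and the smallest adjusted p was 0.43. The calls given next include clones of these plates, such as H3112H10 and H3111F10. Over all clones, calls came without the second NIH 3T3 heavy basal (5), first 4E heavy basal (4), first 4E light basal (3), first 4E heavy starved (2) and second 4E light starved sample (2). There was 1 call each without the second 4E heavy starved, second NIH 3T3 heavy starved and first NIH 3T3 light basal sample.

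Clones H3018F03 and H3031D09, on other plates, had the smallest p among positive differences between the lines (3.60, SE 0.68, and 3.19, SE 0.61, limma adjusted p = 0.18 for both). The heavy samples of clone H3018F03 stood at 2.68 and 1.96 in NIH 3T3 basal and at 1.78 and 1.83 in 4E starved cells, and its 12 other samples lay between -0.098 and 0.78. The heavy samples of clone H3031D09 stood at 2.16 and 2.12 in NIH 3T3 basal and at 1.86 and 2.30 in 4E starved cells, and its 12 other samples lay between -0.43 and 0.51. Both were high in the heavy samples of the side with control values. Their pooled terms were 0.093 and 0.066, since heavy samples of NIH 3T3 basal and of 4E starved cells enter the pooled term with opposite signs.

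The correlation between serum states and the share of calls differed with how often the 2 columns of a clone were equal. What equal columns stand for is not given in the sources used here. The 2 columns of a sample were equal at 8.54 to 23.8% of clones. For the 3018 clones whose columns differed in all 16 samples, the basal and starved heavy minus light differences correlated at r = 0.91, and 17.4% (basal) and 22.1% (starved) of them were called. For the 841 clones with equal columns in 6 or more samples r was 0.30, and 0.71% and 1.66% were called. The SD of the heavy minus light difference was 0.73 (basal) and 0.77 (starved) in the first class and 0.38 and 0.41 in the last. The pooled term ran the other way, with an SD of 0.33 in the first class and 0.47 in the last, and 1.42% and 2.62% of these clones had an unadjusted p under 0.05. The median residual SD between replicate samples was 0.40 and 0.41.

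**Figure D5:**
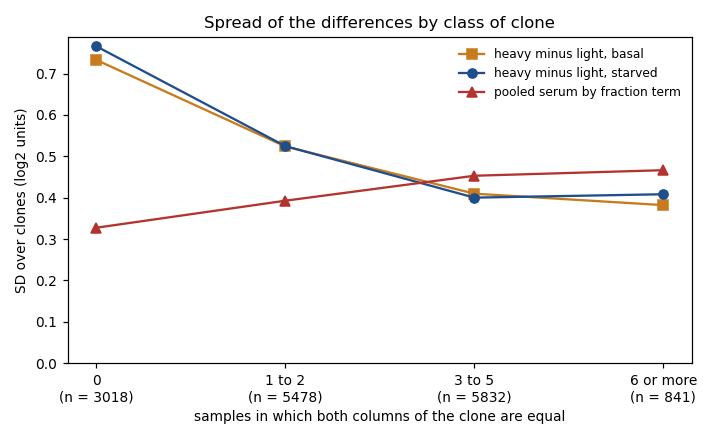
SD over clones in log2 units (y axis) of the heavy minus light difference in basal and starved cells and of the pooled serum by fraction term, for clones grouped by the number of samples in which both columns were equal (x axis, with the number of clones). The SD of the difference goes from 0.73 and 0.77 to 0.38 and 0.41, and that of the pooled term from 0.33 to 0.47.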

How the data were processed

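Per the labels, the authors deposited 2-colour log ratios against the common reference, read here as log2. Their base, centring, direction, scanner, background correction and normalization are not given in the sources. The largest absolute value was 11.3. Column medians lay between -0.15 and 0.18. The lowest correlation between columns was 0.024, which alone does not settle whether all columns run the same way. The averaged samples had a median r of 0.33 to 0.52 with the other samples.

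In all 16 pairs of title numbers (1 with 2, 3 with 4) the same column was never below its partner for any clone, so each pair was averaged as 1 sample and centred on its median (shift at most 0.052). The 78 clones with a missing value were left out. Group means were fitted with limma 3.58.1 under R 4.3.3 with empirical Bayes moderation (8 residual and 6.51 prior degrees of freedom). P-values were Benjamini-Hochberg adjusted over clones within each contrast, at a threshold of 0.05. The fit was tested on simulated data.

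Up to 2 clones per sign and contrast were named. They are the largest differences among called clones with the same sign in both lines, or else the smallest p. The comparison, the pairing of columns and the rules were chosen with earlier results of these data known, and the plates after the values were seen. Gene and marker lists could not be used without gene names. Alternatives covered the columns, centring, scaling, weights, moderation, missing values, the replicate number, single samples and the plates.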

Additional observations from a re-analysis of the deposited data

How the results depend on the processing

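Counts of called clones stayed within 1.5 times those reported, except as follows. With each of the 32 columns as a sample, 231 clones passed for the pooled term, 438 in NIH 3T3, 921 in 4E cells, 1018 for the difference of the lines, 4569 for basal and 4875 for starved heavy minus light. That fit counts both columns of a sample as replicates. With the sample as a random block these were 0, 0, 1, 27, 1906 and 2086. The lower column of each pair gave 1 clone in 4E cells (H3009C04), quantile normalization 1 in NIH 3T3 (H3076B11), and ordinary least squares 557 for basal heavy minus light. When 1 sample was left out, the pooled term had 0 to 6 calls, with 0 to 27 in NIH 3T3, 0 to 12 in 4E cells and 0 to 5 for the difference of the lines. Basal heavy minus light had 167 (without the second NIH 3T3 light basal sample) to 1027 and starved heavy minus light 535 (without the second 4E light starved sample) to 1409. No named clone changed sign under any alternative run, but clones H3120E07, H3125E02, H3152D09 and H3156E02 lost their calls under ordinary least squares, and the last 3 also without single samples. Over named clones and alternatives 17 calls were lost and 23 gained. Most of the gains came from the fits on single columns, with each column as a sample or the sample as a random block. The labels do not say that title numbers pair samples, and over 28 pairs of groups the deviations of numbered samples correlated at -0.33 to 0.36. With the number as a replicate block, 0 clones passed for the pooled term, either line and the difference of the lines, and 714 (basal) and 969 (starved) for heavy minus light. This block was 1 term for the number over all groups. It did not pair heavy with light samples of a line and serum state. The plate alternatives were chosen after seeing the data. Signal over background is not used here.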

Other observations

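The control rows, 3XSSC buffer and Arabidopsis, entered no comparison. In the 8 samples that hold them, their 2 columns lay 1.91 to 5.30 (buffer) and 1.88 to 6.10 (Arabidopsis) log2 units apart, against a median gap of 0.20 for clones with unequal columns. The cell line by serum term, which also coincides with the sides of the control rows, had a mean square of 7.63 times that between replicates on plates H3105 to H3112 and of 2.46 times on the other plates. With the plates exchanged it was 2.44 times over all clones. These plates were picked by the low r between the sides, whose difference this term is. The high value on them and the lower value after the exchange thus follow in part from that choice.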
